A study of Mus musculus with 8 samples.

Results

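The genes described here are the replication-dependent histone genes of the mouse histone clusters, as measured in macrophages that carried 1 of 4 STING transgene labels. They were found as the rows of the deposited expression table whose identifier has a protein-coding GENCODE M21 symbol starting with Hist1h, Hist2h, Hist3h or Hist4h. This gave 67 of the 53715 rows: 6 genes for the linker histone H1, 18 for H2A, 18 for H2B, 12 for H3 and 13 for H4. All cells were Sting-/- mouse macrophages, so the controls lack endogenous STING too, and all received 500 µg/ml of CMA (10-carboxymethyl-9-acridanone), which activates mouse STING directly, for 4 h. No library therefore shows unstimulated cells. The 4 groups of 2 libraries each are no_transgene (transgene label none, titled with the vector name MSCV2.2), mSTING (mouse STING), dCTT and zfCTT. The last 2 labels are read here as mouse STING without its C-terminal tail and mouse STING with a zebrafish tail. The proteins were stably expressed. Which promoter drives them, and whether a line is 1 clone, is not given in the sources used here. The series asks how the tail of STING sets interferon and NF-κB signalling.

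Each nucleosome wraps DNA around pairs of the core histones H2A, H2B, H3 and H4, and H1 binds the linker DNA between nucleosomes. Replication-dependent histone genes lie in clusters, have no introns as a rule, and are transcribed mainly in S phase, when new chromatin is assembled. Their messages are unusual: the 3′ end is formed by a cut behind a conserved stem-loop bound by SLBP, the stem-loop binding protein, and carries no poly(A) tail. A fraction of histone messages of differentiated or non-dividing cells is instead polyadenylated at a downstream site. The libraries here were made from polyadenylated mRNA, so the values describe what poly(A) selection kept of these messages.

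Of the 67 genes, 54 lie on chromosome 13 between positions 21715763 and 23934851, 10 on chromosome 3 between 96219865 and 96270132, 2 on chromosome 11 and 1 on chromosome 6 (GRCm38). The stem-loop was searched in the annotated transcripts as the 16 bases GGNNCTTTTNAGNNCC, on both strands. It was present in 44 of the 67 genes and in 78 of 21951 protein-coding genes (0.355%), with 0 matches on the reverse strand of the 67. It was found in 4 H1, 11 H2A, 10 H2B, 8 H3 and 11 H4 genes. No match says only that these letters are not in the annotated transcript. The 6 forms found are shown because they are the feature that sets these messages apart from other mRNA; capitals mark the 4 bases of the loop, the lower-case arms pair with each other, and each is written as DNA from the GENCODE M21 transcripts.
Form in 26 genes, among them Hist1h1c, Hist1h2ao and Hist1h2ac: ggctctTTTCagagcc
Form in 7 H4 genes, among them Hist1h4d: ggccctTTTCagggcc
Form in 6 genes, among them Hist1h3f and Hist1h2bk: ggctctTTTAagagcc
Form in Hist1h4i and Hist2h4: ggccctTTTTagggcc
Form in Hist1h4b and Hist1h4j: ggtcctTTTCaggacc
Form in Hist2h2ac: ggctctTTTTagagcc
The H4 genes carried forms with a different stem from those of the other classes, and the loop differed in its last base. In 22 of the 44 genes an annotated transcript ran more than 100 bases beyond the stem-loop, up to 4884 bases in Hist1h1d. The hexamer AATAAA, a signal for polyadenylation, stood in the last 60 bases of a transcript in 15 of the 67 genes.

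The values are RPKM, reads per kilobase of gene model and per 1000000 reads. Depth read from the steps of the values was about 20100000 to 171400000 reads a library, with both zfCTT libraries (20100000 and 34800000 reads) and no_transgene replicate 1 (27700000 reads) as the shallowest. Macrophage markers summed to 838 to 1334 RPKM, with 9 of 12 at a mean of at least 1, while the marker lists of dendritic cells, fibroblasts, T cells, B cells, neutrophils and epithelium each summed to at most 0.447 RPKM. Tmem173, the gene of STING itself, stood at 3.23 and 2.42 RPKM in the no_transgene libraries and at 10.6 to 22.7 in the other 6. One library stood apart for RNA that lacks a poly(A) tail: over 34 rows of such RNAs (7SK, RNase MRP, small nuclear and nucleolar RNAs), the median log2 deviation from the mean of the 8 libraries was 0.87 in no_transgene replicate 1, 0.29 in dCTT replicate 1 and -0.23 to -0.05 in the other 6. Separate cultures are not stated for the libraries of any group, so p-values rest on a spread that may be purely technical. In RNA from a whole dish, fewer cells that transcribe a gene and less of its RNA per cell cannot be told apart.

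H2A genes held nearly all of the histone signal. The median of the gene means was 1078 RPKM over the 18 H2A genes, against 42.7 over 18 H2B genes, 19.1 over 13 H4 genes, 13.0 over 12 H3 genes and 0.700 over 6 H1 genes. Summed over the rows of a class, H2A had 8710 to 16453 RPM (reads per 1000000) and H2B 327 to 825 RPM. H3 had 80.1 to 174, H4 91.5 to 164 and H1 47.6 to 140 RPM. A read that fits several genes may be in these sums more than once. Reads summed over all rows of the table came to 104.9% to 108.7% of depth. The 4 core histones are needed in equal numbers in a nucleosome, and the RPKM of their genes were far from equal. Poly(A) selection, shared reads and 1 short stretch of the H2A genes, described below, enter these values. How far the values follow message levels was not tested.

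**Figure D1:**
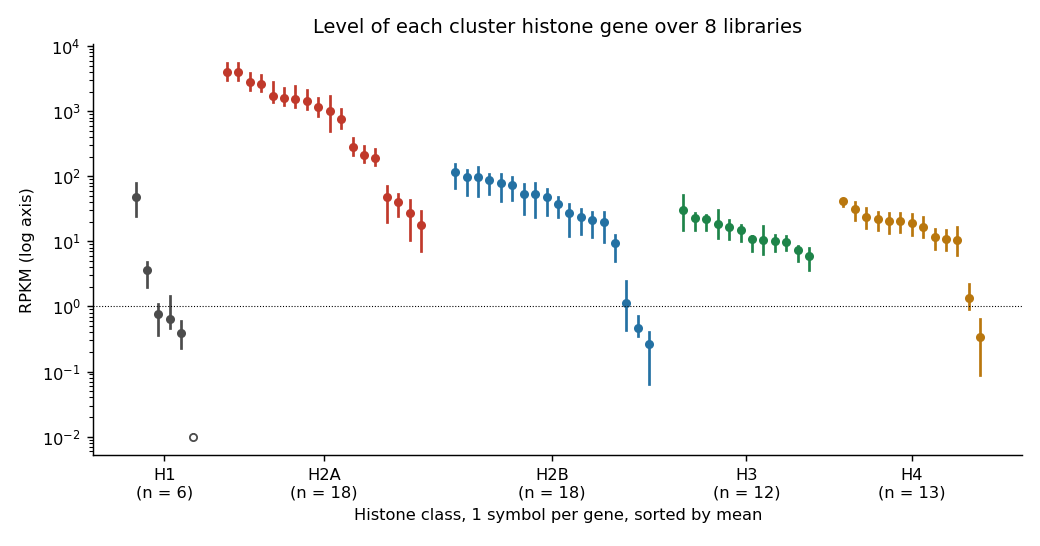
RPKM (log axis) of the 67 histone genes by class; each point is the mean over 8 libraries, each line runs from the lowest to the highest library, and the dotted line is 1 RPKM. H2A genes reach 3989 RPKM, while the open circle, Hist1h1t with a mean under 0.01, is drawn at 0.01.

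The 12 genes with the highest means were all H2A genes of chromosome 13. Hist1h2ao (chr13:21810465-21810944, plus strand) was the highest. It was read at 4341 and 3630.0 RPKM in no_transgene, 5565 and 4030.2 in mSTING, 3524 and 4007 in dCTT, and 2989 and 3825 in zfCTT. Both mSTING libraries lay above both of dCTT and of zfCTT, while no_transgene overlapped each of the other groups. Its near copy Hist1h2ap (chr13:21833026-21833507, minus strand) had 4304 and 3584, 5526 and 3981, 3484 and 3914, and 2968 and 3794 RPKM in the same order of libraries. The ratio of the pair was 1.01 to 1.02 in all 8 libraries, and 93.5% of the 50-base words of Hist1h2ao are also in Hist1h2ap, so reads of these 2 genes cannot be told apart over most of their length.

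Hist1h2ah had 2140.5 and 2988 RPKM in no_transgene, 3848 and 2899.9 in mSTING, 2421 and 3054 in dCTT, and 2138 and 2748 in zfCTT. Hist1h2ag, its neighbour, had 2079 and 2752, 3539.5 and 2732, 2244 and 2843, and 2055 and 2538 RPKM. In both genes mSTING replicate 1 was the highest library and zfCTT replicate 1 the lowest. Hist1h2af had 1605 and 1689, 2839.7 and 1384, 1542 and 1479, and 1587 and 1453 RPKM: mSTING replicate 1 stood above the other 7, and mSTING replicate 2 was the lowest of the 8. Hist1h2ai had 1376 and 1537, 2277 and 1648, 1442 and 1683, and 1239 and 1739 RPKM.

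The same library was the highest in the rest of this set. Hist1h2an had 1161 and 1813, 2457 and 1349, 1251 and 1818, and 1166 and 1232 RPKM. Hist1h2ad had 1178 and 1424, 2102 and 1478, 1293 and 1575, and 1093 and 1458 RPKM. The first of these differed 2.12-fold between its highest and lowest library, and the second 1.92-fold. Hist1h2ab had 894 and 1032, 1616 and 1163, 1059 and 1337, and 851 and 1289 RPKM. Hist1h2ak had 654 and 1195, 1715 and 928, 787 and 1325, and 489 and 917 RPKM, the widest range of the 12 at 3.50-fold. Hist1h2ae had 600 and 683, 1073 and 778, 672 and 848, and 555 and 851 RPKM. Hist1h2ac had 217 and 270, 389 and 298, 245 and 307, and 211 and 298 RPKM. Its 2482 bases of exon, against 390 to 2146 in the other H2A genes, enter the denominator of its RPKM.

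Outside chromosome 13 the H2A genes were lower. Hist2h2aa1 and Hist2h2aa2 of chromosome 3, which share 89.2% to 100% of their 50-base words, had means of 190 and 209 RPKM. Hist2h2ac had a mean of 47.3, Hist3h2a of chromosome 11 had 40.8 and Hist2h2ab had 27.0. Hist1h2aa, at the far end of the chromosome 13 cluster, was the lowest H2A gene with 17.6.

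Much of the H2A signal was counted in 1 short stretch. GENCODE places 17 gene models of miRNA type, 129 to 144 bases long, inside 17 of the 18 H2A genes, all on the opposite strand; no other histone class holds one. Each model has a row of its own, and its reads could be set against those of the whole gene. The stretch held a mean of 46.7% to 100% of the gene's reads in 5.56% to 35.9% of its exon length, and more than its share of length in 17 of 17 genes. A read that crosses the edge of a model can be counted in the model too. This raises its share by an amount that was not tested, and matters most where the excess is small. Hist1h2af, for example, had 46.7% of its reads in 35.3% of its length. In Hist1h2ac the model Gm44350 held 65.8% of the reads in 5.56% of the length. In Hist1h2ae the figure was 86.9%, and in Hist1h2aa the model Gm44344 held 100% in each of the 8 libraries. Hist1h2aa and Gm44344, on opposite strands, thus held the same number of reads in each of the 8 libraries, as when the same reads are counted in both rows. The strand setting of the counting is not given in the sources used here. Reads of the gene and of a transcript from the other strand cannot be told apart.

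The model lies within the annotated coding sequence in 16 of these genes and not wholly within it in Hist1h2ah. Its 138 bases in Hist1h2ac are found whole in the transcripts of 9 genes, namely Hist1h2ab, Hist1h2ac, Hist1h2ad, Hist1h2ae, Hist1h2ag, Hist1h2ah, Hist1h2ai, Hist1h2ao and Hist1h2ap, so a read that falls inside it fits at least these 9. It is shown for 4 genes on the sense strand from the GENCODE M21 transcripts (GRCm38), with capitals where a base differs from the shared form.
Shared form, as in Hist1h2ac (chr13:23683535-23683672, minus strand): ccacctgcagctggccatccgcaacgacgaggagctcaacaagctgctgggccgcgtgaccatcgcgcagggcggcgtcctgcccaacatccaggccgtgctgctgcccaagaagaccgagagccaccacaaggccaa
Hist1h2ak (chr13:21753445-21753582, minus strand), 1 difference: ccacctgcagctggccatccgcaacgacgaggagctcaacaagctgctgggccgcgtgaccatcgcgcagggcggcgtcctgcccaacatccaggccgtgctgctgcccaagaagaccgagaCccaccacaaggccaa
Hist3h2a (chr11:58954983-58955120, plus strand), 2 differences: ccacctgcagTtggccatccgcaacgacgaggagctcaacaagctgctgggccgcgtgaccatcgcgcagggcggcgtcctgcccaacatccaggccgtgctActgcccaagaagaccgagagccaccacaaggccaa
Hist2h2aa1 (chr3:96245826-96245963, plus strand), 7 differences: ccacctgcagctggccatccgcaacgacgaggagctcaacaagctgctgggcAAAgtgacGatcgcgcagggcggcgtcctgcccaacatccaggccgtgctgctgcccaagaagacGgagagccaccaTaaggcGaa
The genes with the shared form had a wide range of levels outside the stretch. With the reads and bases of the short model taken away, Hist1h2ao had a mean of 2531 RPKM, Hist1h2ab 229.7, Hist1h2ae 120.5 and Hist1h2ac 100.4. Hist3h2a fell from a mean of 40.8 over the whole gene to 2.18, Hist2h2ac from 47.3 to 3.08 and Hist1h2aa from 17.6 to 0. The median over the 17 genes was 385 RPKM outside the stretch against 1155 over the whole gene. Even so, 11 of the 17 stood above the highest H2B gene outside the stretch, and 14 of 17 did over the whole gene. A read that crosses the edge of a model can be counted in both rows, which makes the values outside too low by an amount that was not tested.

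**Figure D2:**
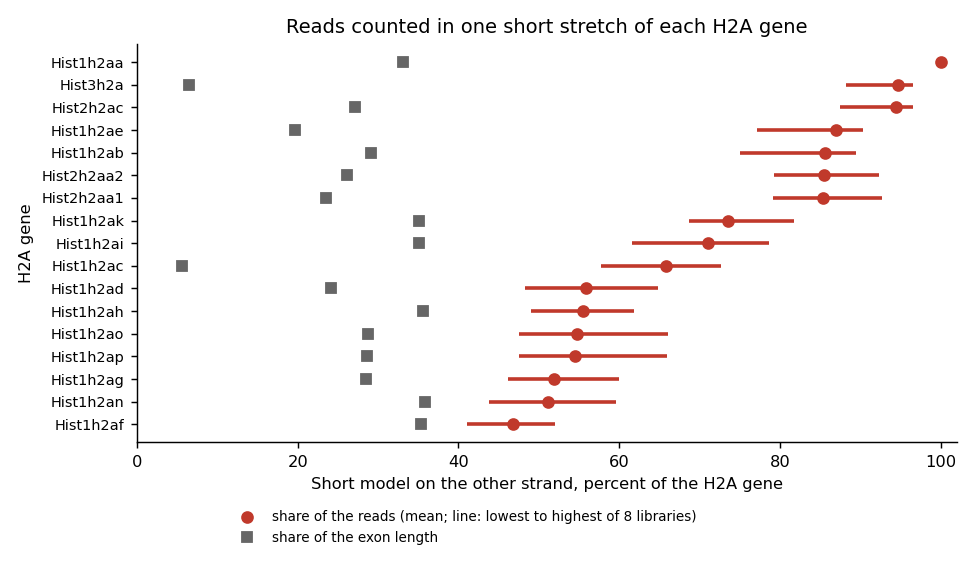
Percent of each H2A gene's reads counted in the short model on its other strand (circle, mean; line, lowest to highest of 8 libraries) and percent of its exon length in that model (square), for 17 H2A genes. Every circle lies to the right of its square, and reads across the edge of a model can add to the circle.

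Sharing of sequence was not limited to H2A. Of the 67 genes, 30 share at least 50% of their 50-base words with other genes of the set, and the words link 11 H2A genes, 11 H2B genes, 9 H3 genes and 6 H4 genes into 1 group each. Hist1h2bq has 97.3% of its words in Hist1h2br, and their RPKM ratio was 1.09 to 1.10 in all libraries. Hist1h4m and Hist1h4n share 83.2% to 89.8%. Levels of single genes inside these groups are therefore uncertain. Neither read length nor the treatment of reads that fit several places is given in the sources used here. Some rows may hold largely the same reads. Hist1h3b, Hist1h3d and Hist1h3h held 922, 909 and 923 reads in no_transgene replicate 2, and 388, 374 and 388 in zfCTT replicate 2. Hist1h4b and Hist1h4j held 923 and 926 reads in no_transgene replicate 2. A count of genes in a class is therefore not taken as a count of separate observations. Trim17 overlaps Hist3h2a on the same strand, and Gm20634 overlaps Hist2h2aa1 and Hist2h3c1, so reads of those genes may also be counted there.

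H2B genes came next. Hist1h2bg had the highest mean, 114 RPKM, with 65.8 and 152 RPKM in no_transgene, 103 and 155 in mSTING, 87.3 and 156 in dCTT, and 101 and 95.1 in zfCTT. Hist1h2bc had 49.9 and 134, 98.2 and 137, 62.9 and 137, and 68.7 and 78.9 RPKM. In both genes the second library of no_transgene, mSTING and dCTT was well above the first. The difference inside no_transgene and inside dCTT was larger than any between group means. Hist1h2ba, known as a testis form of H2B, had a mean of 54.1 RPKM. Of its 50-base words, 38.2% are also in each of Hist1h2bj, Hist1h2br and Hist1h2bq, so this value may hold reads of other genes. Hist2h2bb, at 1.14, ran the other way from its class, with 1.51 and 0.441 RPKM in no_transgene, 0.685 and 0.595 in mSTING, 1.84 and 0.536 in dCTT, and 2.49 and 1.06 in zfCTT, on 14 to 39 reads a library.

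H2A and H2B genes often sit head to head, with their starts a short way apart. There were 12 such pairs, with 175 to 305 bases between the genes. Their RPKM values did not stand in a fixed ratio. The H2A gene had 0.159 to 366 times the RPKM of its H2B neighbour. Exon length and the short stretch enter these ratios. Hist1h2ap has 482 bases of exon and Hist1h2br 2212, with 57523 and 721 reads in no_transgene replicate 1. The model Gm44466 held a mean of 54.5% of the reads of Hist1h2ap. Hist1h2ap with Hist1h2br reached 366 in no_transgene replicate 1 and 130 in no_transgene replicate 2. Hist1h2ac with Hist1h2bc had the ratios 4.34 and 2.01 in no_transgene, 3.97 and 2.18 in mSTING, 3.90 and 2.25 in dCTT, and 3.07 and 3.78 in zfCTT. In 3 of the 4 groups the first library had the higher ratio. In Hist1h2aa with Hist1h2ba the H2A gene was the lower of the pair in all libraries, at 0.159 to 0.554.

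The promoter letters of the classes also differed. RefSeq promoters of GRCm38.p6 were matched for 62 of the 67 genes, and the 250 bases before each start were searched on both strands. CCAAT was found in 6 of 6 H1, 18 of 18 H2A, 16 of 16 H2B and 8 of 10 H3 promoters but in 3 of 12 H4 promoters, against 34.5% of 27025 promoters in all. The octamer ATTTGCAT stood in 7 of 18 H2A and 6 of 16 H2B promoters, in 0 of the other classes and in 1.61% of all. The H1 box AAACACA was found in 5 of 6 H1 promoters and in 6.22% of all. TATAA stood in 5 of 6 H1, 10 of 18 H2A, 12 of 16 H2B, 5 of 10 H3 and 8 of 12 H4 promoters, against 23.5%. The windows of head-to-head H2A and H2B genes can overlap, so 1 match can be counted in both classes. Hist1h2ae and Hist1h2bg, for example, hold the same octamer. The H2A and H2B counts are therefore not separate. A match is a description of letters and not a bound site. The 250 bases before the RefSeq starts of Hist1h2ac and of Hist1h1c, the highest H1 gene, are shown with matches in capitals. Most of those of Hist1h2ac lie between it and its head-to-head neighbour Hist1h2bc, and a few lie in Hist1h2bc as annotated by GENCODE.
Upstream of Hist1h2ac (chr13:23683960-23684209, minus strand), with CCAAT or its reverse ATTGG, the octamer as its reverse ATGCAAAT, and TATAA or its reverse TTATA: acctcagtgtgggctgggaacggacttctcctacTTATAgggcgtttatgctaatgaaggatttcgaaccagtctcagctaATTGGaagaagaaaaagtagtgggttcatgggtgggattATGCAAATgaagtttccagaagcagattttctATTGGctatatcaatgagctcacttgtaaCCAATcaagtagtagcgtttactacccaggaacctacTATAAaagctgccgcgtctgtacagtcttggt
Upstream of Hist1h1c (chr13:23738557-23738806, plus strand), with AAACACA and CCAAT: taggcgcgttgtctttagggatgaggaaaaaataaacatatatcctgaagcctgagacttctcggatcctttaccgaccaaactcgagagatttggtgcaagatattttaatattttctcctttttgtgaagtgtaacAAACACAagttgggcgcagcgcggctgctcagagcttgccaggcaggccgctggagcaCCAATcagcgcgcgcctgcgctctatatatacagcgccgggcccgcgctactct

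Among the linker histones Hist1h1c stood far above the rest, with 26.6 and 74.3 RPKM in no_transgene, 50.03 and 69.0 in mSTING, 24.4 and 78.6 in dCTT, and 24.2 and 36.2 in zfCTT. The mSTING libraries lay above both of zfCTT, and the other groups overlapped. Hist1h1e had a mean of 3.68 and Hist1h1d of 0.752. Hist1h1b and Hist1h1a had means of 0.648 and 0.396. Hist1h1t, the testis H1, was listed at 0 in 7 libraries and held 1 read in no_transgene replicate 2.

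The H3 genes covered a narrow range, from Hist1h3f with a mean of 5.86 RPKM to Hist2h3b of chromosome 3 with 30.1. Exon length enters this order. Hist2h3c1 (1825 bases) and Hist2h3c2 (1020 bases) both held 1640 reads in no_transgene replicate 2, with means of 10.5 and 18.7 RPKM. Hist2h3b had 14.9 and 26.6 RPKM in no_transgene, 23.1 and 33.7 in mSTING, 31.6 and 29.1 in dCTT, and 30.2 and 51.5 in zfCTT. Among H4 genes, which encode 1 and the same protein, Hist1h4i was highest and the most even: 35.5 and 43.0 RPKM in no_transgene, 41.2 and 44.9 in mSTING, 36.0 and 45.2 in dCTT, and 42.2 and 44.4 in zfCTT. Its highest library was 1.27 times its lowest. Hist4h4 of chromosome 6 had a mean of 0.339, and 5 reads in zfCTT replicate 1. With Hist2h2be at 0.471 and Hist3h2ba at 0.266, it is among the 6 genes that did not reach an RPKM of 1 in 2 libraries and were not tested; the others are Hist1h1a, Hist1h1b and Hist1h1t. The 61 tested genes are all H2A and H3 genes, 16 H2B, 12 H4 and 3 H1, and 58 of them reached 1 RPKM in all 8 libraries.

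Libraries of 1 group differed widely in these genes. No_transgene replicate 1 was the lowest library for 44 of the 67 genes and zfCTT replicate 1 for 16, while zfCTT replicate 2 was the highest for 21 and mSTING replicate 1 for 18. The 44 include Hist1h1t, where the value of 0 was tied with other libraries. The classes did not move as 1 block. In H2B genes the median log2 deviation was -0.80 and 0.43 in no_transgene, -0.03 and 0.47 in mSTING, -0.30 and 0.45 in dCTT, and -0.13 and -0.08 in zfCTT. H2A genes were highest in mSTING replicate 1 (0.51) and lowest in zfCTT replicate 1 (-0.39). H4 genes ran from -0.50 in no_transgene replicate 1 and -0.34 in mSTING replicate 1 to 0.42 in zfCTT replicate 2, and H3 genes from -0.53 in no_transgene replicate 1 to 0.25 in zfCTT replicate 2. So mSTING replicate 1 had the highest H2A values and the second lowest H4 values of the 8 libraries. The library with the lowest median deviation over the tested histone genes, no_transgene replicate 1 (-0.53), was also the one with the highest values of RNAs that lack a poly(A) tail (0.87); the part of this shift in the histone values was not tested. By reads summed over all 67 genes, where H2A dominates, zfCTT replicate 1 was the lowest library, with 9516 RPM against 10797 in no_transgene replicate 1.

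**Figure D3:**
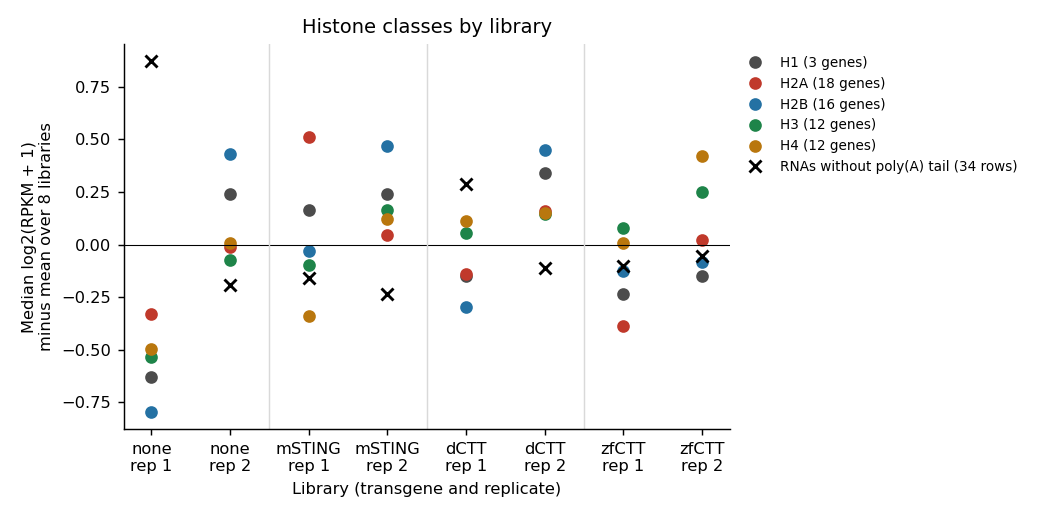
Median of log2(RPKM + 1) minus the gene's mean over 8 libraries, over the tested genes of each histone class (circles) and over all 34 rows of RNAs that lack a poly(A) tail (crosses); the groups are separated by grey lines and none stands for no_transgene. In no_transgene replicate 1 all 5 classes lie below 0 and the cross is at 0.87.

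Replicates differed more in these genes than in the table as a whole. The median absolute log2 difference between the 2 libraries of a group was 0.53 over the 61 genes against 0.32 over all 13475 tested genes in no_transgene. It was 0.46 against 0.21 in mSTING, 0.32 against 0.22 in dCTT and 0.31 against 0.29 in zfCTT. In no_transgene 57 of 61 genes were higher in replicate 2, in dCTT 52 and in zfCTT 54. In mSTING the classes split: 18 of 18 H2A genes were lower in replicate 2, while 12 of 12 H3, 12 of 12 H4 and 15 of 16 H2B genes were higher.

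No histone gene passed the test in any of the 6 comparisons between transgenes. A limma fit to log2(RPKM + 1) called 0 of 61 at an adjusted p under 0.05 in each comparison. The genes at an unadjusted p under 0.05 numbered 7 in zfCTT against no_transgene and 0 in each of the other 5. Limma-voom on recovered reads also called 0, with 5 genes at an unadjusted p under 0.05 in zfCTT against no_transgene and 0 in the others. Of 13475 genes tested by limma, 1808 were under that unadjusted p in zfCTT against no_transgene, 1476 in zfCTT against mSTING and 1709 in zfCTT against dCTT. The numbers were 467 in mSTING against no_transgene, 36 in dCTT against no_transgene and 336 in dCTT against mSTING. So 7 of 61 was no larger a share than that of all genes. Over all genes tested, 1.08% were called in zfCTT against no_transgene, 0.119% in zfCTT against mSTING and 1.08% in zfCTT against dCTT. In mSTING against no_transgene, dCTT against no_transgene and dCTT against mSTING, 0.0% were called. The comparisons share libraries, so their values are given side by side and are not independent of each other.

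Between mSTING and no_transgene, the transgene of full mouse STING against none, most histone genes had higher mean values with mSTING. The fitted log2 change was above 0 for 59 of 61, with a median of 0.37, beside -0.04 over all genes tested. Both mSTING libraries lay above both of no_transgene for 16 genes (11 H2A, 4 H3 and 1 H4) and below for 0, where 15.3% of all genes lay above and 17.0% below. As described above, rows of a class may hold the same reads, so these counts are not of separate observations. The class medians were 0.43 for H2A, 0.41 for H2B, 0.39 for H1, 0.33 for H3 and 0.14 for H4. Hist2h2ab, at 10.5 and 25.4 RPKM without a transgene and 38.3 and 35.0 with mSTING, had the largest change, 1.11 ± 0.60 (SE; limma adjusted p = 0.840). Hist2h2ac had 0.93 ± 0.50, Hist1h2ab 0.51 ± 0.28 and Hist1h2ac 0.49 ± 0.26, each also with a limma adjusted p of 0.840. Without no_transgene replicate 1 the median over the 61 genes was 0.06, and the class medians were -0.18 in H2B, -0.11 in H4, -0.06 in H1, 0.09 in H3 and 0.33 in H2A. Without mSTING replicate 1 the H2A median was 0.19, and without mSTING replicate 2 that of H4 was -0.09 and that of H2B 0.17.

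Between dCTT and no_transgene most of the genes whose libraries did not overlap were H3 and H4 genes. The median was 0.30 over 61 genes, of which 57 were above 0, beside -0.01 over all genes. Both dCTT libraries lay above both of no_transgene for 23 genes, namely 11 of 12 H3, 9 of 12 H4 and 3 of 18 H2A genes, where 7.75% of all genes did; they lay below for 1 gene, Hist1h2af, where 6.69% did. The same limit from shared reads holds for these counts. The class medians were 0.39 for H3, 0.38 for H4, 0.27 for H2B, 0.15 for H2A and 0.11 for H1. Hist1h3a, at 7.09 and 8.99 RPKM without a transgene and 10.4 and 11.1 in dCTT, had a change of 0.38 ± 0.18 (SE; limma adjusted p = 1). Hist1h3c had 0.40 ± 0.21, Hist1h3f 0.37 ± 0.18 and Hist1h3e 0.35 ± 0.17, with the same adjusted p in limma. Without no_transgene replicate 1 the median over 61 genes was 0.02, with 0.16 in H3, 0.12 in H4, 0.02 in H2A, -0.18 in H1 and -0.34 in H2B, where 15 of 16 genes were then below 0. Without dCTT replicate 2 the median was 0.01 in H2A, -0.10 in H2B and -0.10 in H1.

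Between zfCTT and no_transgene the classes parted. All 12 H3 and all 12 H4 genes had changes above 0, with medians of 0.45 and 0.48, while the medians of H2A, H2B and H1 were 0.02, 0.04 and -0.14. The median over 61 genes was 0.12, beside -0.04 over all genes. Both zfCTT libraries lay above both of no_transgene for 16 genes, 10 of them H3 and 6 H4, where 18.8% of all genes did; they lay below for 1, again Hist1h2af, where 20.8% did. The share of the whole set, 26.2% above, is thus near the background, and the share in H3 was 83.3%. The H3 rows may hold many of the same reads. This 83.3% therefore cannot be set against the background as a share of separate genes. The 7 of 61 genes at an unadjusted p under 0.05 in limma, beside 1808 of all 13475 genes, were 6 H3 genes and 1 H4 gene.

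Hist1h3f (chr13:23544052-23545312, plus strand) had 3.69 and 5.23 RPKM in no_transgene, 5.44 and 5.56 in mSTING, 5.81 and 6.12 in dCTT, and 7.28 and 7.79 in zfCTT. Both zfCTT libraries lay above the other 6 and both no_transgene libraries below. Its change in zfCTT against no_transgene was 0.66 ± 0.18 (SE; limma adjusted p = 0.180), the smallest adjusted p of any histone gene in that comparison. Hist2h4, an H4 gene of chromosome 3 near the lower edge of what was tested, had 0.929 and 1.01 RPKM in no_transgene, 1.18 and 1.51 in mSTING, 1.25 and 1.11 in dCTT, and 1.62 and 2.204 in zfCTT. Its change was 0.56 ± 0.17 (limma adjusted p = 0.238), on 42 to 311 reads a library.

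Hist1h3a had 12.7 and 11.4 RPKM in zfCTT and a change of 0.54 ± 0.18 (limma adjusted p = 0.265). Hist2h3c2 had 11.4 and 15.9 RPKM in no_transgene, 15.4 and 20.6 in mSTING, 19.3 and 17.5 in dCTT, and 19.2 and 30.4 in zfCTT. Its change was 0.80 ± 0.28 (limma adjusted p = 0.300), and zfCTT replicate 2 alone stood well above the rest. Without no_transgene replicate 1 the class medians were 0.26 in H3, 0.22 in H4, -0.11 in H2A, -0.43 in H1 and -0.55 in H2B, where 15 of 16 genes were then below 0, and -0.10 over 61 genes; without no_transgene replicate 2 that of H2B was 0.66 and that over 61 genes 0.60. Without zfCTT replicate 2 the median was -0.24 in H2A and 0.25 in H4.

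**Figure D4:**
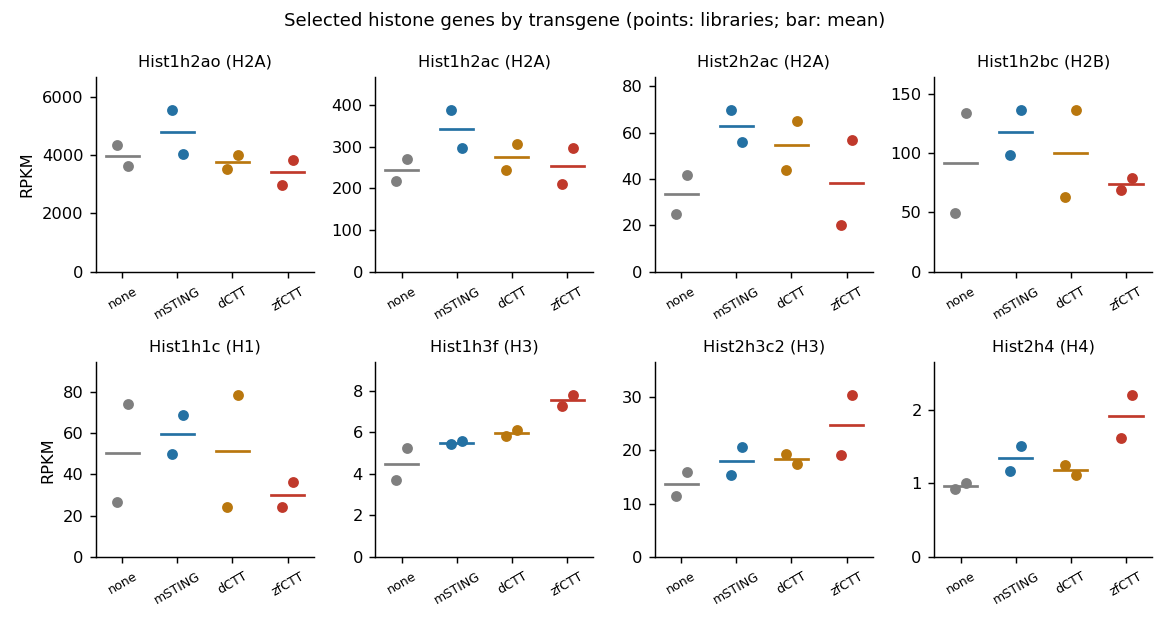
RPKM of 8 histone genes by transgene (none stands for no_transgene); points are the 2 libraries of a group, bars their mean, and each vertical axis starts at 0. Hist1h3f is highest in both zfCTT libraries (7.28 and 7.79 RPKM), while Hist1h2bc and Hist1h1c differ as much inside no_transgene and dCTT as between groups.

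Between zfCTT and mSTING, the zebrafish tail against the mouse tail, H2A and H2B genes had lower mean values with the zebrafish tail, and H3 and H4 genes higher. The fitted change was below 0 for 18 of 18 H2A genes (median -0.47), 15 of 16 H2B genes (-0.34) and 3 of 3 H1 genes (-0.38). It was above 0 for 11 of 12 H3 genes (0.19) and 12 of 12 H4 genes (0.31). Both zfCTT libraries lay below both of mSTING for 23 genes and above for 6, where 24.4% and 24.9% of all genes did. Hist1h2ao had a change of -0.49 ± 0.24 (SE; limma adjusted p = 0.478) and its near copy Hist1h2ap -0.48 ± 0.24 with the same adjusted p. Hist1h4d, at 6.17 and 9.96 RPKM in mSTING and 10.0 and 16.6 in zfCTT, had 0.65 ± 0.32 (limma adjusted p = 0.478), and Hist1h3f 0.39 ± 0.18 (adjusted p = 0.470 in limma). Without mSTING replicate 1 the H3 median was 0.07 with 6 of 12 genes above 0, the H4 median 0.10 with 9 of 12, the H2A median -0.25, and the median over 61 genes -0.18, beside -0.31 with all libraries. Without mSTING replicate 2 the H2B median was -0.09 and that over 61 genes -0.07, and without zfCTT replicate 2 the H3 and H4 medians were 0.10 and 0.11.

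Between dCTT and mSTING, the comparison of tail loss, H2A genes were again lower and H4 genes higher in mean value, by less. The medians were -0.29 for H2A (18 of 18 below 0), -0.15 for H2B, -0.13 for H1, 0.08 for H3 and 0.23 for H4, and -0.11 over the 61 genes, beside 0.03 over all genes. Both dCTT libraries lay above both of mSTING for 8 genes and below for 2, where 16.2% and 12.8% of all genes did. The 2 below are the near copies Hist1h2ao (-0.33 ± 0.24) and Hist1h2ap (-0.34 ± 0.24), and among those above were Hist1h4d (0.61 ± 0.32) and Hist1h4f (0.37 ± 0.28), all with a limma adjusted p of 0.999937. Without dCTT replicate 1 the median over 61 genes turned to 0.15, with 0.23 in H2B and 0.15 in H1, and without dCTT replicate 2 it was -0.36. Without mSTING replicate 1 the H2A median was -0.06 with 5 of 18 genes above 0, the H3 median -0.06 and the H4 median at 0 to 2 decimals with 6 of 12 genes above 0.

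Between zfCTT and dCTT few histone genes had libraries that did not overlap. The median was -0.13 over 61 genes, beside -0.02 over all genes, and both zfCTT libraries lay above both of dCTT for 3 genes and below for 2, where 20.1% and 24.7% of all genes did. Hist2h4 had 0.41 ± 0.17 (SE; limma adjusted p = 0.399) and Hist1h3f 0.29 ± 0.18 (limma adjusted p = 0.559). Hist1h1e had -0.31 ± 0.29 (limma adjusted p = 0.706) and Hist1h2an -0.33 ± 0.37 (limma adjusted p = 0.763). Without dCTT replicate 2 the median over 61 genes turned to 0.07 and that of H2B to 0.14. Without zfCTT replicate 1 they were 0.06 over 61 genes and 0.03 in H2A, and without zfCTT replicate 2 the H4 median was -0.15.

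**Figure D5:**
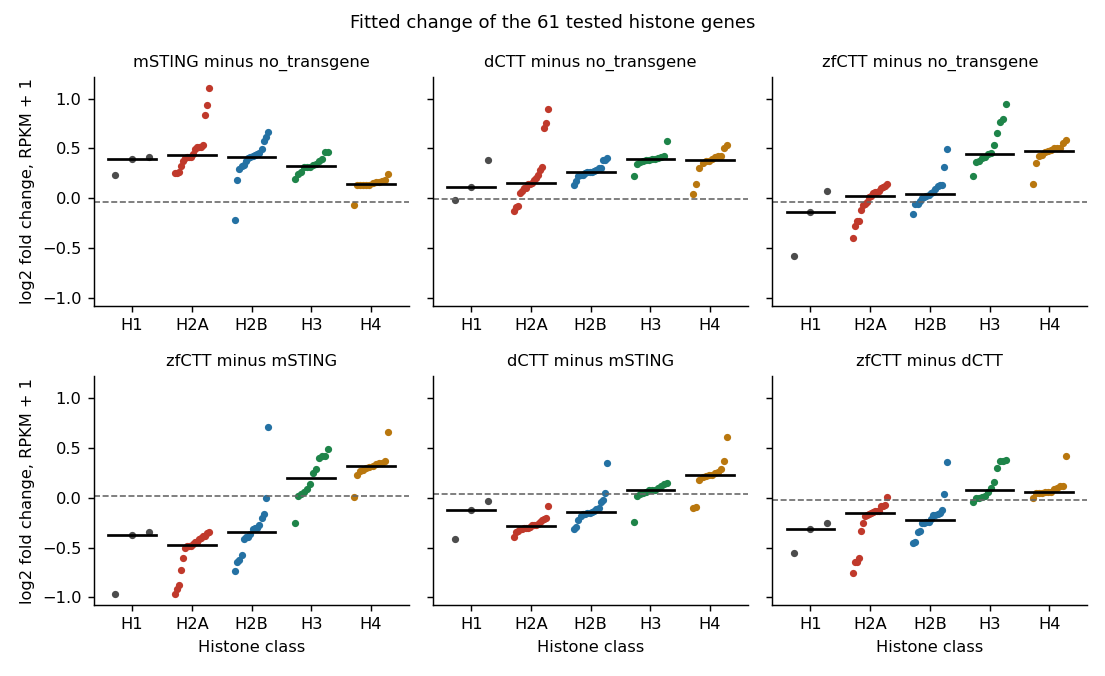
Fitted log2 fold change on the RPKM + 1 scale of the 61 tested histone genes in each of 6 comparisons, by class; points are genes, bars class medians, and the dashed line is the median over all genes tested. H3 and H4 genes lie above 0 in zfCTT minus no_transgene (medians 0.45 and 0.48), where H2A genes lie around 0.

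Genes around the histone cycle were read from lists, of which 2 had called members. Of 10 tested histone variants classed here as replication-independent and polyadenylated, H1fx, the linker histone H1.X, rose in zfCTT against no_transgene and against dCTT. Its change was 2.98 ± 0.33 SE against no_transgene (limma adjusted p = 0.0203) and 2.74 ± 0.33 SE against dCTT (limma adjusted p = 0.0248). It had 0.593 and 1.73 RPKM in no_transgene, 3.13 and 1.95 in mSTING, 1.11 and 1.86 in dCTT, and 17.5 and 13.6 in zfCTT. The call against no_transgene was lost when any 1 library of no_transgene, dCTT or zfCTT was left out (limma adjusted p = 0.0508 to 0.179). On simulated data the fit made more false calls in zfCTT against no_transgene than its threshold states, mainly among short gene models. How far this bears on the H1fx call and on that of Daxx was not tested. With gene models of at least 200 bases alone, both stayed called in that comparison (limma adjusted p = 0.0153 for H1fx and 0.0365 for Daxx). H1fx is a variant and no cluster gene, and no H1 gene of the clusters was called.

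The other variants gave no call. H2afz (H2A.Z, which marks gene starts) had 595 to 909 RPKM over the 8 libraries, and H2afx, the variant phosphorylated at DNA breaks, 252 to 474. H2afx shares 82 50-base words with the cluster genes, so its value may hold reads of them. How much of its message carries a poly(A) tail was not tested. H3f3b, a gene of the replacement histone H3.3, had 129 and 143 RPKM in no_transgene, 161 and 156 in mSTING, 115 and 134 in dCTT, and 329.7 and 207 in zfCTT, a change of 0.94 ± 0.25 in zfCTT against no_transgene (limma adjusted p = 0.170). H3f3a, which encodes the same protein, had -0.02 ± 0.30 in that comparison (limma adjusted p = 0.989). H1f0, the H1 of non-dividing cells, had 17.3 to 35.5 RPKM.

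Of 18 tested histone chaperones, Daxx, which carries H3.3 to chromatin, rose in zfCTT against no_transgene by 2.26 ± 0.35 (SE; limma adjusted p = 0.0459). It had 14.01 and 18.3 RPKM in no_transgene, 58.3 and 27.8 in mSTING, 17.1 and 17.9 in dCTT, and 92.2 and 70.8 in zfCTT. Left-out single libraries of no_transgene, dCTT or zfCTT ended this call too (limma adjusted p = 0.0890 to 0.325). No other chaperone was called in any comparison.

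The genes that process and degrade histone messages gave 0 calls among 22 tested in the 6 comparisons. Slbp, the stem-loop binding protein, had 5.81 to 8.80 RPKM, with the highest value in no_transgene replicate 1, and a change of -0.12 ± 0.19 in zfCTT against no_transgene (limma adjusted p = 0.828). Npat, the co-activator of histone gene transcription, had 0.630 to 1.32 RPKM. Casp8ap2 did not reach the filter, at 0.414 to 0.855. The 46 genes of S phase and DNA replication and the 24 of G2 and mitosis gave 0 calls each. In mSTING against no_transgene the S phase median was -0.18 with 32 of 46 genes below 0, and the G2 and mitosis median -0.24 with 21 of 24 below 0, beside 0.37 over the histone genes. In zfCTT against mSTING they were 0.12 and 0.21, beside -0.31 over the histone genes, and their part in the histone values was not tested. Pcna, the replication clamp, had 101 to 144 RPKM, and Mki67, a marker of dividing cells, had 9.85 and 2.50 RPKM in no_transgene, 1.68 and 2.34 in mSTING, 3.94 and 2.63 in dCTT, and 5.38 and 2.23 in zfCTT. The first library of a group was the higher for Mki67 in 3 of 4 groups, where the histone genes were lower.

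The 23 tested RNAs that lack a poly(A) tail also gave 0 calls. Rn7sk, the 7SK RNA, had 96.1 and 22.9 RPKM in no_transgene, 43.3 and 36.0 in mSTING, 99.0 and 40.4 in dCTT, and 55.1 and 83.3 in zfCTT. The list summed to 1273 RPKM in no_transgene replicate 1, 869 in dCTT replicate 1 and 1035 in zfCTT replicate 2, against 382 to 660 in the other 5. Its median change was -0.67 in mSTING, -0.24 in dCTT and -0.42 in zfCTT against no_transgene, opposite in sign to the histone medians of 0.37, 0.30 and 0.12. The part of this in the histone values was not tested.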

How the data were processed

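RNA from macrophages was sequenced as 8 single-end poly(A) libraries, per the labels' protocols. The deposited values are RPKM per gene. Per the submitters' processing notes, cutadapt 1.16, HISAT2 2.1.0 and the builds GRCm38 and mm10 were used, with no roles stated; neither the counter, the strand setting nor the annotation release is given in the sources used here. Depth was recovered from RPKM × GENCODE M21 exon length, which gave whole reads (within 0.05) for 95.0% to 95.6% of values. limma 3.58.1 in R 4.3.3 was fitted to log2(RPKM + 1) of all 8 libraries, for 13475 genes at RPKM 1 or more in at least 2 libraries, with 4 residual degrees of freedom and Benjamini-Hochberg adjustment over all genes at 0.05. Fold changes on this scale understate those of low genes. Genes named in a comparison were the 4 histone genes with the smallest p among those whose libraries did not overlap, beside genes from the lists. The members and lists were chosen with earlier results of these data known. On simulated data the fit made more false calls than its threshold states in zfCTT against no_transgene, mainly among short gene models. Counts over all genes in the zfCTT comparisons may therefore be too high. The simulation gave every gene the same spread and the libraries no shifts. How far its excess holds in these data, or for the H1fx and Daxx calls, was not tested. A restriction to gene models of at least 200 bases was added after seeing the data. With this restriction more genes were called in the zfCTT comparisons, and H1fx and Daxx stayed called. No histone gene is shorter than 312 bases.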

Additional observations from a re-analysis of the deposited data

How the results depend on the processing

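No histone gene was called under any of 18 alternatives (pseudocount, filters, rescaling, voom on recovered reads, protein-coding genes alone, gene models of at least 200 bases, replicate block, left-out libraries), and the smallest limma adjusted p of a histone gene in any of them was 0.101. The named genes were chosen from those whose libraries did not overlap, so leaving out a library could not turn their direction, and their kept direction says nothing about stability. The median over histone genes in dCTT minus mSTING was 0.15 without dCTT replicate 1, -0.36 without dCTT replicate 2, and 0.15 when dCTT replicate 1 and no_transgene replicate 1 were both left out. Leaving out 1 library at a time, the medians ranged from 0.06 to 0.60 (mSTING minus no_transgene), 0.02 to 0.64 (dCTT minus no_transgene), -0.10 to 0.60 (zfCTT minus no_transgene), -0.33 to -0.07 (zfCTT minus mSTING), -0.36 to 0.15 (dCTT minus mSTING) and -0.22 to 0.07 (zfCTT minus dCTT). The cause was not tested. Over all genes, limma called 146, 16 and 146 in zfCTT against no_transgene, mSTING and dCTT; gene models of at least 200 bases gave 212, 22 and 203, and protein-coding genes alone 354, 63 and 348. Same-numbered libraries deviated together with correlations of 0.032 to 0.762, not all over 0.1, so the numbers are not taken as pairs. With a replicate block the histone medians did not move and 0 members were called; 3, 4, 17, 4, 0 and 1 of them had an unadjusted p under 0.05 (in the order of the ranges above), against 0, 0, 7, 0, 0 and 0 without it, while 432, 44 and 409 genes were called in the 3 zfCTT comparisons. How many of all genes had an unadjusted p under 0.05 with the block is not given here. The member counts with the block therefore stand without a background. Depth limits Hist4h4, with 5 reads in zfCTT replicate 1, and Hist1h1t, with 1 read in all.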
